A study of Mus musculus with 6 samples.

Results

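Synaptic vesicle and release genes encode the presynaptic machinery that stores transmitter in vesicles, fuses them with the membrane and retrieves them again. The 33 genes described here were taken as a fixed list of symbols, and every probe set that a platform annotation paired with 1 of these symbols was used. The list had 87 of the 34945 probe sets with 1 symbol, and its 33 genes were among 18193 genes in all. By role, 15 genes belonged to the vesicle itself, 9 to fusion, 3 to the active zone and 6 to endocytosis. No measured value was used to choose the genes, but they were proposed with earlier results of these arrays known.

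The samples were RNA from mouse hippocampus on 6 Affymetrix expression arrays. In 3 HuD pulldowns, an anti-myc antibody on protein-G beads recovered RNA together with a transgenic HuD protein, while 2 control pulldowns used beads with non-immune IgG and 1 array held the total input RNA. Strain, age, sex, the promoter of the transgene, the cells that carry it and whether arrays came from separate animals were not given in the labels, so the p-values cover array-to-array spread only, which could be technical. The labels do not say from which genotype the IgG and input RNA came. Arrays of a group are numbered by accession, and the numbers pair nothing.

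HuD is a neuronal RNA-binding protein of the ELAV family that binds U-rich and AU-rich stretches in mRNA and influences their stability and translation. At a synapse, vesicles filled with transmitter dock at the active zone. SNARE proteins of the vesicle and of the plasma membrane zip together and drive fusion, and the ATPase NSF with its SNAP adaptors then takes the SNARE complex apart. Clathrin adaptors, amphiphysin, dynamin and synaptojanin retrieve and uncoat the membrane. The comparison asks which of these mRNAs made up a larger or smaller part of the RNA with HuD than on control beads.

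The unit was a linear signal per probe set, already scaled to a common level on each array, so a gene's value depends on the rest of the RNA in that sample. A gene was represented by its probe set with the highest mean, and 9097 genes in the brighter portion of the arrays were tested with limma on log2(signal + 32). Log2 differences are on that scale and are given ± their standard error, and a gene was called at an adjusted p under 0.05. All 33 genes were bright enough to be tested. Elavl4, the gene of HuD, was called higher with HuD than with IgG (log2 difference 1.46 ± 0.25, adjusted p = 0.00111). Between the IgG arrays 5 of the 33 genes differed at least 2-fold, and between pairs of HuD arrays 0 or 1. In these bulk samples, fewer cells of a type and less RNA per cell cannot be told apart. Of 34 tested markers of cell types 5 were called higher and 15 lower with HuD than with IgG, beside 21.5% and 34.0% of all genes tested. The summed signal of 7 excitatory neuron markers was 9364.1 to 10655.8 in the HuD pulldowns, 5569.6 to 6319.9 with IgG and 4983.4 in the input. Bcl11b, at 4728.0 to 6121.2 with HuD and 2304.7 and 1907.0 with IgG, made up much of that sum. Without it, the sums of the HuD and IgG arrays would overlap. Of the 6 tested excitatory markers 3 were called higher and 0 lower, and Camk2a, at −0.97 ± 0.41, had all HuD arrays below both IgG arrays. The summed signal of 6 microglia markers was 1391.8 to 1917.2 with HuD, 2783.4 to 4457.9 with IgG and 4230.4 in the input. No marker was at 0, and the part of these markers in the results below was not tested.

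Of the 33 genes, 7 rose and 9 fell in the HuD against the IgG pulldowns, and 17 did not pass. The risers were the vesicle genes Syt4 and Syn2, the fusion genes Vamp2, Snap25 and Napb, the active zone gene Rims1 and the endocytic gene Snap91. The fallers were Syp and Syngr3 of the vesicle, Stx1a, Nsf and Napa of fusion, Bsn of the active zone, and Dnm1, Amph and Synj1 of endocytosis. These shares, 21.2% higher and 27.3% lower, lie near those of all genes tested, of which 21.5% were called higher and 34.0% lower, so the list as a whole did not stand apart in its counts. Its median log2 difference was 0.00, beside −0.28 for all genes tested. Among the 4548 brightest genes, which held 30 of the 33, the median of all genes was 0.09, with 1486 called higher and 1328 lower, and of the members 8 were called higher and 9 lower. With the arrays centred on the 75th percentile the list had 10 genes higher and 5 lower, and all genes 2536 higher and 1702 lower in place of 1958 and 3093.

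**Figure D1:**
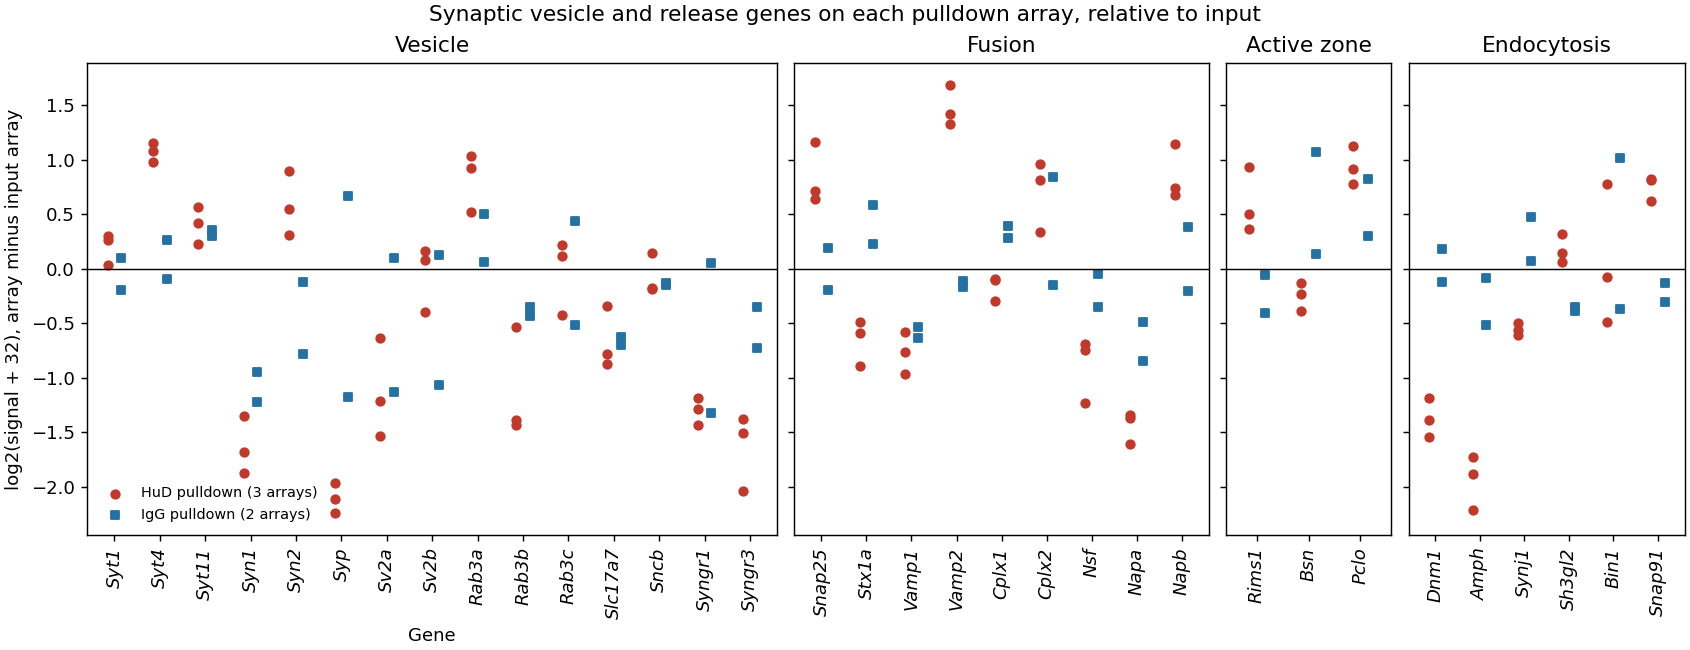
Each point is 1 pulldown array: the vertical axis gives log2(signal + 32) minus that of the input array for the 33 genes, in panels by role, with HuD arrays as red circles and IgG arrays as blue squares, and the line at 0 as the input. The HuD points of Vamp2 lie highest above the input and those of Syp and Amph farthest below it on average, while the IgG arrays of Syp lie far apart.

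Counts and medians differed between the subgroups, which hold few genes each, and these differences were not tested. Of all genes tested 21.5% were called higher and 34.0% lower, with a median of −0.28. Of the vesicle genes 2 of 15 rose and 2 fell (median 0.01, from −1.86 to 1.04). Of the fusion genes 3 of 9 rose and 3 fell (median −0.19, from −1.07 to 1.62). The active zone list had 1 gene higher and 1 lower of 3 (median 0.38). Among the 6 endocytosis genes 1 rose and 3 fell (median −0.54, from −1.65 to 0.97). Computed for each HuD array against the IgG mean, the endocytosis median ranged from −0.85 to −0.18 and the vesicle median from −0.10 to 0.08. The median of all genes tested, −0.28, lies within that endocytosis range. The endocytosis median was −0.09 without IgG array 1 and −0.99 without IgG array 2, the vesicle median was −0.18 without IgG array 2, and the active zone median was 0.64 and 0.11 without IgG arrays 1 and 2. Centred on the 75th percentile, the fusion median was 0.13.

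All HuD arrays lay above both IgG arrays for 9 genes and below both for 12, and the arrays overlapped for 12. Over all genes tested the HuD arrays lay above both IgG arrays in 27.6% and below both in 43.1%. All 16 called genes were without overlap. HuD array 1, IgG array 1 and the input share the title ending le1, and HuD arrays 2 and 3 and IgG array 2 share e1_le1, a mark the labels do not explain. The 16 called genes had the same sign within both endings, which follows from the lack of overlap and is no further evidence. The 7 risers differed by 0.36 to 1.53 within le1 and by 0.75 to 1.67 within e1_le1, and the 9 fallers by −2.92 to −0.64 and by −1.46 to −0.44. The widest gap was that of Syp, at −2.92 within le1 and −0.86 within e1_le1.

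**Figure D2:**
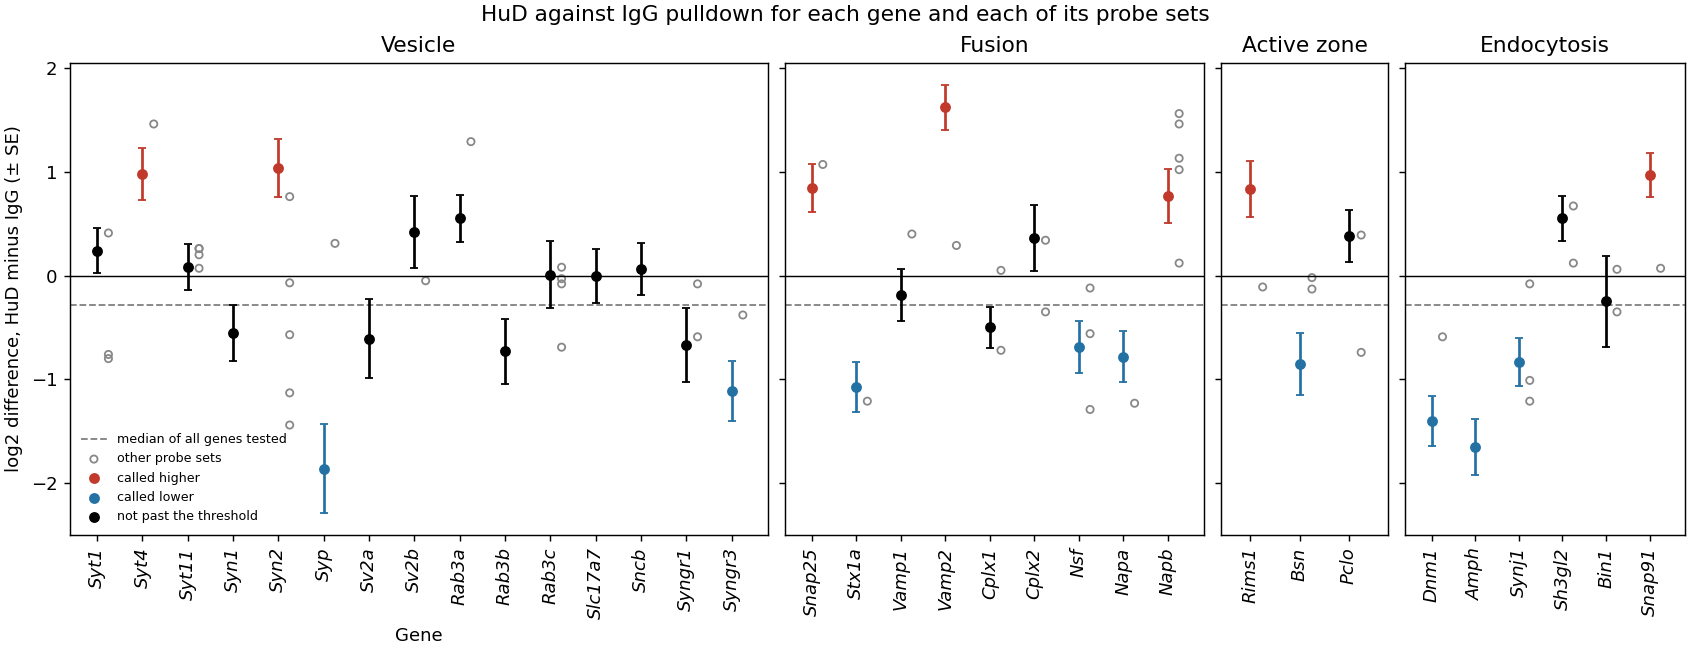
The vertical axis gives the log2 difference, HuD minus IgG, for the representative probe set of each gene (filled points ± SE, from 3 HuD and 2 IgG arrays) and for its other probe sets (open circles). Red points were called higher and blue points lower, and the dashed line marks the median of all genes tested, −0.28. Napb has all its probe sets above 0, and those of Syn2 lie on both sides of it.

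Among the synaptotagmins of the list, a family of vesicle proteins, Syt4 was the gene that rose. Syt4 encodes a synaptotagmin that is found on neuronal vesicles and is induced by activity. Its signals were 1127.5, 995.9 and 1073.7 in the HuD pulldowns, 595.6 and 458.5 with IgG and 490.5 in the input. The lowest HuD array was thus well above both IgG arrays and the input, and the difference was 1.98-fold (0.98 ± 0.25, adjusted p = 0.00731). Its second probe set gave 1.46. Syt1, the fast calcium sensor for release, ranged from 5601.2 to 6743.9 with HuD and from 4792.0 to 5861.5 with IgG (0.24 ± 0.22), and the groups overlapped. Syt11, a close relative of Syt4, was at 0.08 ± 0.22, and its 5 probe sets lay between 0.07 and 0.26.

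The synapsins tether vesicles to each other in the reserve pool. The representative probe set of Syn2 had signals of 3127.5, 4007.5 and 2657.4 with HuD, 1956.9 and 1225.4 with IgG and 2137.2 in the input. All HuD arrays exceeded both IgG arrays and the input, a 2.06-fold difference from IgG (1.04 ± 0.28, adjusted p = 0.00932). A dimmer probe set of the same gene went the other way, with 276.3, 407.2 and 283.4 with HuD, 945.9 and 884.3 with IgG and 857.5 in the input. Fitted over all 45037 probe sets that are no array controls, that probe set was called lower (−1.44, adjusted p = 0.00898), as was a still dimmer probe set with signals of 3.8 to 68.3 (−1.13), and the representative did not pass (adjusted p = 0.0507). With its 6 probe sets averaged, Syn2 was at −0.24, so its direction depends on which probe set is read. Syn1 had 1 probe set, at 413.2, 608.1 and 477.7 with HuD, 815.0 and 669.9 with IgG and 1606.4 in the input (−0.55 ± 0.27, adjusted p = 0.0958).

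Synaptophysin, encoded by Syp, is a widely used marker protein of synaptic vesicles. Its signals were 211.3, 262.2 and 233.7 with HuD, 1802.9 and 476.6 with IgG and 1121.4 in the input. The HuD arrays agreed closely and lay below all others, while the IgG arrays differed from each other by 1.85 on the log2 scale. Syp fell 3.62-fold (−1.86 ± 0.43, adjusted p = 0.0046). Without IgG array 1 the difference was −0.93 and still passed, and with its probe sets averaged it was −0.78 and did not.

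The synaptogyrins are relatives of synaptophysin. Syngr3 read 231.7, 257.4 and 150.4 with HuD, 422.4 and 558.7 with IgG and 719.8 in the input, without overlap. It fell 2.15-fold (−1.11 ± 0.29, adjusted p = 0.00795), and by 0.74 when its probe sets were averaged, where the call was kept. Syngr1 overlapped between the groups, with 479.2 to 574.8 with HuD and 522.2 and 1400.8 with IgG (−0.67 ± 0.36). It was at −1.36 without IgG array 2 and at 0.01 without IgG array 1.

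The Rab3 proteins are small GTPases that bring vesicles to the active zone. The representative probe set of Rab3a read 10011.1, 14347.7 and 13289.0 with HuD, 7271.0 and 9905.3 with IgG and 6988.2 in the input (0.55 ± 0.23, adjusted p = 0.0644). Its lowest HuD array was just above the higher IgG array. This probe set carries the ending x_at, which Affymetrix gives to probe sets that may bind other transcripts. The second probe set of Rab3a, with 2502.7, 3363.9 and 1589.7 with HuD and 1036.9 and 870.5 with IgG, was called higher over all probe sets (1.29, adjusted p = 0.0343). The gene passed under 7 of 17 alternatives, among them with probe sets averaged (0.92). It was at 0.77 without IgG array 2 and at 0.32 without IgG array 1. Rab3b was at −0.73 ± 0.31, with HuD signals of 81.7 to 179.3 below IgG signals of 195.6 and 208.7, and passed without HuD array 2 (−1.02). Rab3c was at 0.01 ± 0.32, with overlapping arrays.

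The remaining vesicle genes did not pass. Sv2a, a vesicle glycoprotein that binds the drug levetiracetam, was at −0.61 ± 0.38, with IgG signals of 1213.0 and 498.5, of which the second lies within the HuD range of 370.7 to 716.1. Its paralog Sv2b was at 0.42 ± 0.35. IgG array 2 was low for both. Without it Sv2a was at −1.22 and Sv2b at −0.18, and without IgG array 1 they were at 0.01 and 1.02. So these values depend on which IgG array is read. Slc17a7, the vesicular glutamate transporter of excitatory terminals, was at 0.00 ± 0.26, with signals of 81.2 to 131.2 with HuD and 96.0 and 102.0 with IgG. Its only probe set was dim in the input as well, at 175.5, so a difference could be missed. Sncb, or beta-synuclein, was at 0.06 ± 0.25.

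The 3 neuronal SNARE genes of the fusion complex did not move together. Vamp2, the vesicle SNARE synaptobrevin 2, read 7106.6, 8590.3 and 6661.4 with HuD, 2438.2 and 2349.7 with IgG and 2642.2 in the input. All HuD arrays stood far above the close IgG and input values. It rose 3.07-fold, the largest rise among the 33 genes (1.62 ± 0.22, adjusted p = 0.000372). With its dim second probe set (0.29, signals of 37.8 to 104.1) averaged in, the difference was 0.95 and still passed. Vamp1, the related vesicle SNARE, was at −0.19 ± 0.25, with 546.7 to 723.2 with HuD and 696.2 and 746.7 with IgG.

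Snap25, a SNARE of the plasma membrane, read 11135.8, 16051.1 and 11705.3 with HuD, 6243.4 and 8138.8 with IgG and 7145.7 in the input. The HuD arrays were all higher than the others, by 1.79-fold against IgG (0.84 ± 0.23, adjusted p = 0.0105). It no longer passed without the filter on dim genes, or when HuD array 2 was left out (0.68). Its second probe set was variable, with 818.8 and 3073.9 on the IgG arrays and 2107.9 to 4756.7 on the HuD arrays.

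Stx1a encodes syntaxin 1A, the partner SNARE of SNAP-25 in the plasma membrane. It read 2161.7, 2870.8 and 2674.3 with HuD, 4740.3 and 6091.5 with IgG and 4055.4 in the input, so the HuD arrays lay below all others. Stx1a fell 2.09-fold (−1.07 ± 0.24, adjusted p = 0.00372), a call kept under all 17 alternatives. The representative carries the ending x_at. A second probe set with the plain ending, at 120.3 to 258.1 with HuD, 317.8 and 625.6 with IgG and 798.1 in the input, gave −1.21, and over all probe sets it did not pass (adjusted p = 0.0588).

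**Figure D3:**
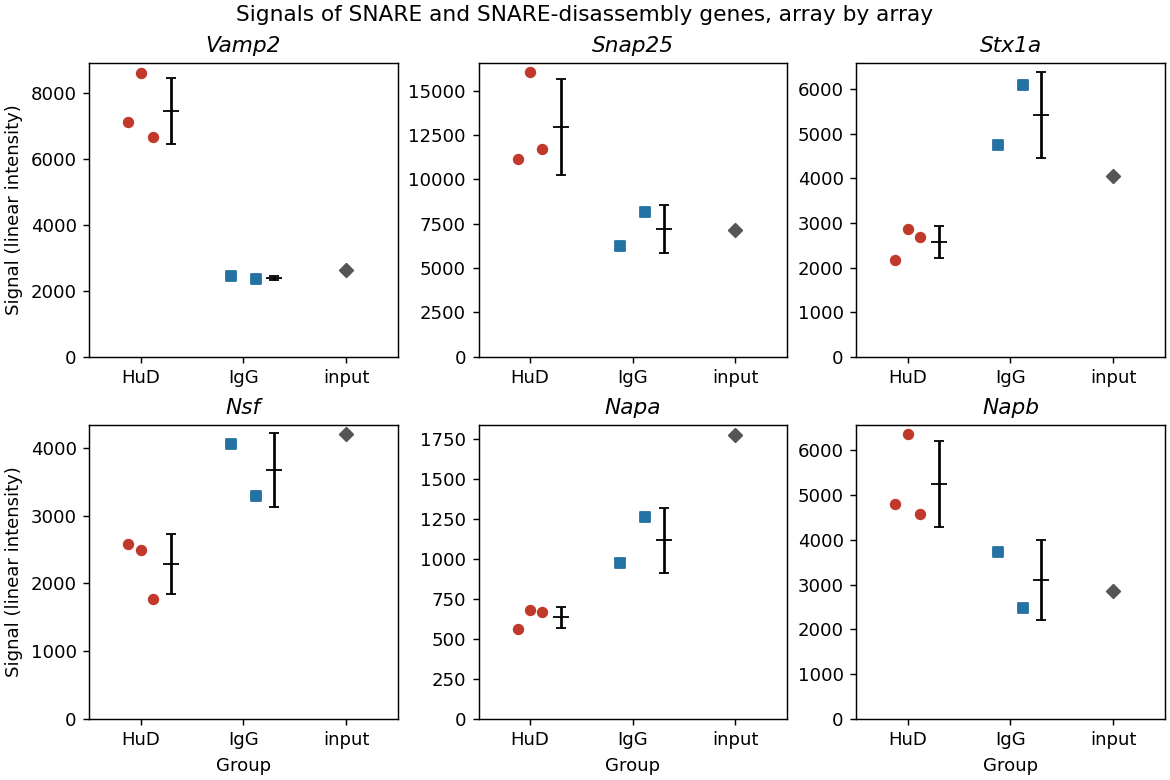
Linear signals of 6 fusion genes on each array (vertical axes start at 0), with HuD arrays as circles, IgG arrays as squares and the input as a diamond, and the mean ± SD beside groups of more than 1 array. Vamp2, Snap25 and Napb lie higher in the HuD group, and Stx1a, Nsf and Napa lie lower, without overlap between HuD and IgG arrays.

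Nsf and its adaptors divided as well. Nsf, the ATPase that separates SNARE complexes, read 2585.3, 2500.3 and 1769.7 with HuD, 4058.5 and 3288.3 with IgG and 4208.4 in the input. It fell 1.61-fold (−0.69 ± 0.25, adjusted p = 0.0365), and a dimmer probe set was called lower over all probe sets (−1.29, adjusted p = 0.0467). The gene's call was lost when any 1 of HuD arrays 1, 2 or 3 was left out (−0.79, −0.76 and −0.52) or IgG array 1 (−0.54), with 75th percentile centring (−0.37) or median centring (−0.54), and without the filter on dim genes. Although every HuD value was below every IgG value, this call is thus near the threshold.

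Napa and Napb encode alpha-SNAP and beta-SNAP, adaptors that load NSF onto the SNARE complex. Napa read 561.2, 682.9 and 667.2 with HuD, 975.0 and 1261.3 with IgG and 1779.5 in the input, and fell 1.71-fold (−0.78 ± 0.25, adjusted p = 0.0229). Napb read 4807.7, 6360.9 and 4589.9 with HuD, 3733.5 and 2478.7 with IgG and 2864.4 in the input, and rose 1.70-fold (0.77 ± 0.26, adjusted p = 0.0257). So within this gene pair HuD arrays were below all others for Napa and above all others for Napb, and the difference between the genes was not tested. The other Napa probe set was called lower over all probe sets (−1.23, adjusted p = 0.0401). Of the other 5 probe sets of Napb 4 were called higher, at 1.13, 1.02, 1.46 and 1.56, and the remaining 1, with signals of 2.3 to 10.1, was at 0.12. The Napa call was lost without HuD array 1 (−0.69) or 3 (−0.81) or IgG array 2 (−0.59), and with median centring (−0.62) or 75th percentile centring (−0.46). The Napb call was lost without HuD array 1 (0.82) or 2 (0.62) or IgG array 2 (0.47), with quantile normalization (0.55), and without the filter on dim genes.

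**Figure D4:**
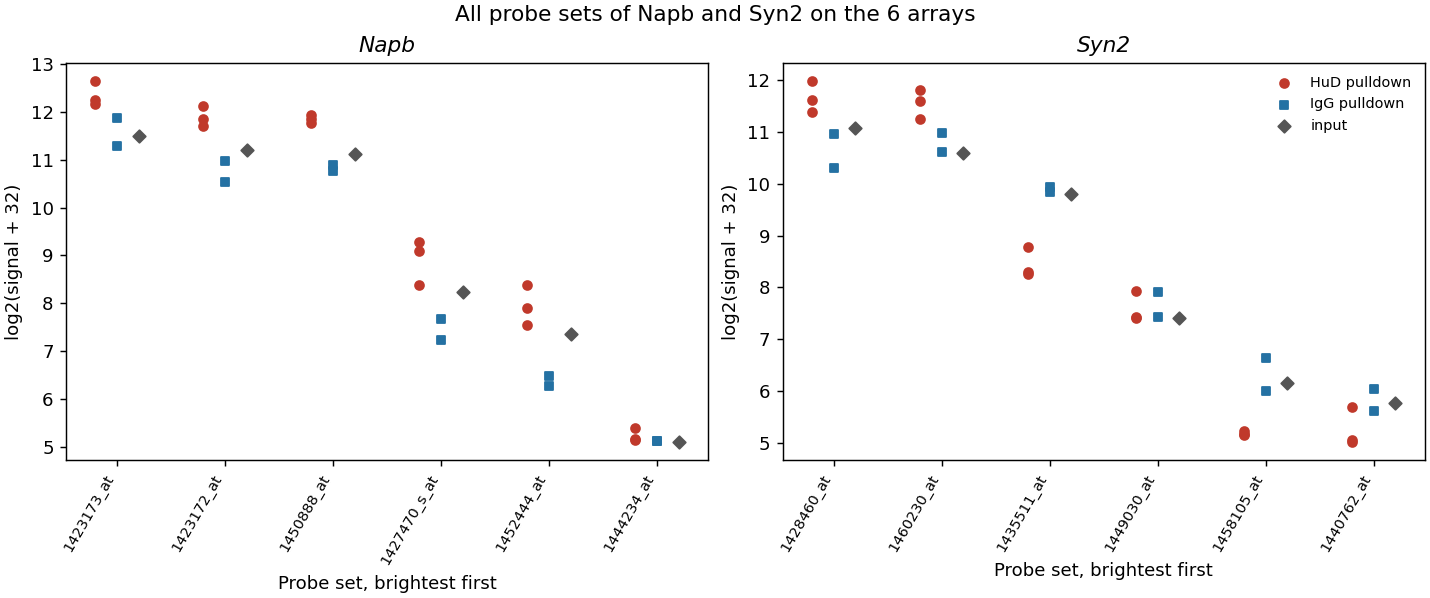
Each probe set of Napb and Syn2 on all 6 arrays, as log2(signal + 32) on the vertical axis and from the brightest to the dimmest probe set. In Napb the HuD arrays lie above the IgG arrays for all 6 probe sets, by little in the dimmest, where signals are 2.3 to 10.1. In Syn2 they lie above for the brightest pair and below for the third brightest.

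The complexins clamp and promote SNARE-driven fusion. Cplx1 was lower on all HuD arrays, at 5453.7 to 6296.6, than on the IgG arrays, at 8179.8 and 8797.0, but did not pass (−0.50 ± 0.20, adjusted p = 0.055), and it passed with quantile normalization (−0.51). Cplx2 was at 0.36 ± 0.32, with IgG signals of 3335.2 and 1663.0, and did not pass. It was at 0.85 without IgG array 1 and at −0.14 without IgG array 2. A second probe set of Cplx2 ranged from 1029.9 to 4509.6 between HuD arrays and from 1078.9 to 5525.8 between IgG arrays, so no direction can be read from it.

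The active zone genes are scaffolds of the release site. Rims1, which links Rab3, calcium channels and the priming machinery, read 1757.8, 2386.2 and 1595.3 with HuD, 1188.0 and 921.7 with IgG and 1236.1 in the input. It rose 1.78-fold (0.83 ± 0.27, adjusted p = 0.0211). The second probe set, at 450.6 to 619.3 with HuD and 424.2 and 743.8 with IgG, overlapped (−0.11), and with both averaged the gene was at 0.36 and did not pass. The call was also lost without HuD array 1 (0.88) or 2 (0.66) or IgG array 2 (0.65), and with quantile normalization (0.61).

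Bsn encodes bassoon, a giant scaffold. It read 538.7, 500.4 and 446.0 with HuD, 1277.4 and 651.8 with IgG and 592.7 in the input. HuD arrays lay a little below the input, and IgG array 1 stood above the rest. Bsn fell 1.80-fold (−0.85 ± 0.30, adjusted p = 0.0341), but the call did not hold when HuD array 1, 2 or 3 (−0.91, −0.86 and −0.78) or IgG array 1 (−0.38) was left out, and the difference was −1.32 without IgG array 2. It was also lost with median centring (−0.70), 75th percentile centring (−0.53) and averaged probe sets (−0.33), and without the filter on dim genes. Pclo, for the related scaffold piccolo, was at 0.38 ± 0.25, with 2820.7 to 3597.0 with HuD and 2014.1 and 2916.1 with IgG, and passed with 75th percentile centring (0.69).

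Among the endocytosis genes, those for dynamin, amphiphysin and synaptojanin fell. Dnm1, the GTPase that pinches off vesicles, read 1512.1, 1948.2 and 1694.3 with HuD, 5080.7 and 4117.7 with IgG and 4487.3 in the input. The HuD signals were under both IgG signals and the input, a 2.65-fold fall (−1.40 ± 0.24, adjusted p = 0.000956). Amph, which binds dynamin and curved membrane, read 493.1, 553.7 and 385.7 with HuD, 1803.8 and 1327.0 with IgG and 1912.2 in the input, and fell 3.13-fold (−1.65 ± 0.27, adjusted p = 0.000843). Both calls were kept under all 17 alternatives. Bin1, the amphiphysin relative also known as amphiphysin 2, was at −0.25 ± 0.44, with 149.3 to 405.9 with HuD and 164.6 and 481.6 with IgG.

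Synj1 encodes the lipid phosphatase that helps shed the clathrin coat. It read 2532.0, 2431.9 and 2346.1 with HuD, 5017.5 and 3777.4 with IgG and 3597.6 in the input, and fell 1.78-fold (−0.83 ± 0.23, adjusted p = 0.0108). The HuD arrays were close together and below the others. A pair of further bright probe sets was called lower over all probe sets, at −1.21 and −1.01. With 75th percentile centring the gene was at −0.51 and did not pass.

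Snap91, or AP180, the neuronal clathrin adaptor that sorts vesicle SNAREs, moved the other way. It read 6391.6, 5604.0 and 6425.4 with HuD, 3307.4 and 2934.4 with IgG and 3630.1 in the input, without overlap. It rose 1.96-fold (0.97 ± 0.21, adjusted p = 0.00359). With its second probe set (signals of 0.5 to 9.6) averaged in, it was at 0.52 and did not pass. Sh3gl2, for endophilin A1, had all HuD arrays, at 3458.9 to 4151.5, above the IgG arrays, at 2519.8 and 2592.4, and did not pass (0.55 ± 0.22, adjusted p = 0.0538). It passed with 75th percentile centring (0.86), with median centring (0.70) and with a stricter filter on dim genes.

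Over all probe sets, 9 of the 87 probe sets of these genes were called higher and 11 lower with HuD than with IgG, beside 5.73% and 8.70% of all 45037 probe sets, most of which were dimmer. These counts were 0 and 0 without HuD array 1, 3 and 5 without HuD array 2, 4 and 0 without HuD array 3, 8 and 6 without IgG array 1, and 5 and 13 without IgG array 2. The share of all probe sets called in these leave-out fits is not given here, so the changes in count cannot be read as particular to these genes. Of the 33 genes 27 had more than 1 probe set. Syn2 had 2 probe sets called lower in this fit, while its representative, called higher among genes, did not pass here.

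**Figure D5:**
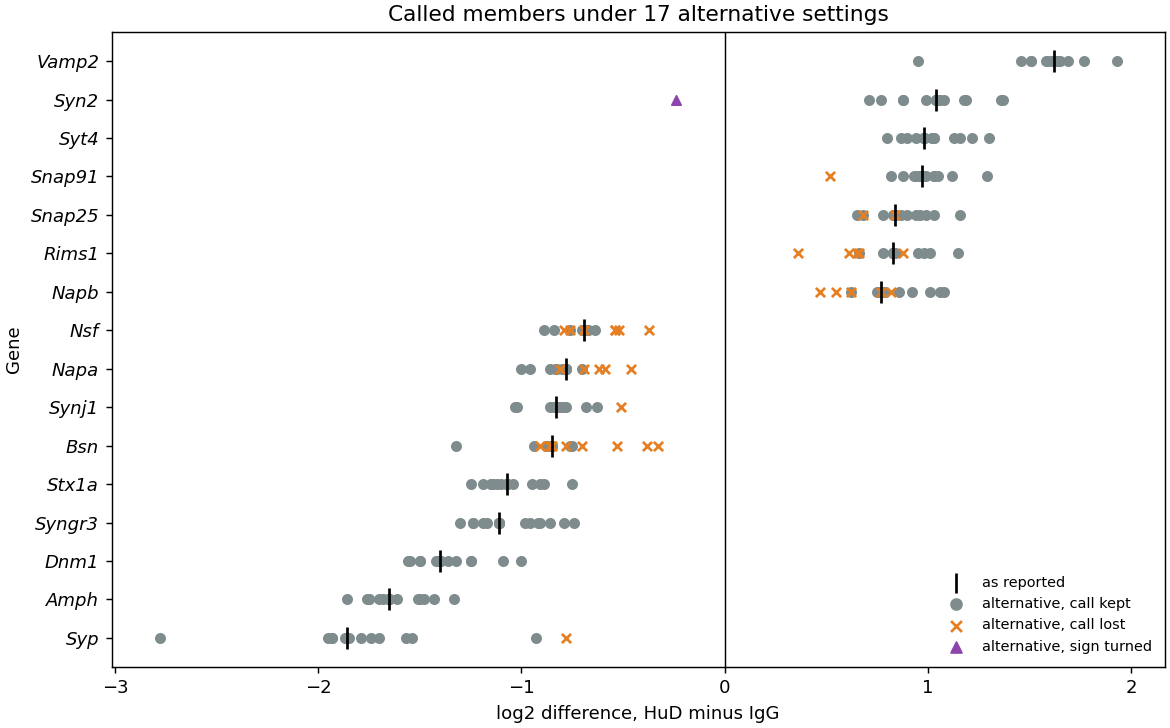
The 16 genes called between HuD and IgG pulldowns, with the log2 difference on the horizontal axis as reported (black bars) and under 17 alternative settings. Grey circles kept the call, orange crosses lost it, and the purple triangle is Syn2 with its probe sets averaged, at −0.24. Vamp2, Syt4, Stx1a, Syngr3, Dnm1 and Amph have grey circles only.

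Set against the input, which had 1 array that was assumed to vary like the others, 6 of the 33 genes were called higher and 9 lower in the HuD pulldowns, beside 15.7% and 25.9% of all genes tested. This comparison shares the HuD arrays with that against IgG and is no independent evidence. Higher than the input were Vamp2 (1.48 ± 0.28), Syt4 (1.07 ± 0.32), Pclo (0.94 ± 0.32), Snap25 (0.84 ± 0.29), Rab3a (0.83 ± 0.29) and Snap91 (0.75 ± 0.27). Lower were Syp (−2.11 ± 0.55), Amph (−1.95 ± 0.34), Syn1 (−1.64 ± 0.34), Syngr3 (−1.64 ± 0.36), Napa (−1.44 ± 0.32), Dnm1 (−1.38 ± 0.30), Syngr1 (−1.31 ± 0.45), Rab3b (−1.12 ± 0.39) and Nsf (−0.89 ± 0.32). Syn2 was at 0.58, Rims1 at 0.60, Napb at 0.85, Stx1a at −0.66, Synj1 at −0.56 and Bsn at −0.25, none past the threshold. The subgroup medians were −0.08 for vesicle, −0.17 for fusion, 0.60 for active zone and −0.24 for endocytosis genes, and −0.32 for all genes tested. With 75th percentile centring the medians of vesicle, fusion and endocytosis genes were above 0, at 0.28, 0.19 and 0.11.

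Syn1, Syngr3, Napa, Dnm1 and Amph kept this call under all 15 alternatives run. The Vamp2 call was lost only with averaged probe sets (0.84), and that of Syp without the filter on dim genes, with averaged probe sets (−0.87) and with the title ending as a block. Without HuD arrays 1, 2 and 3 in turn the calls of Rab3a (0.98, 0.72 and 0.78), Snap25 (0.94, 0.67 and 0.90), Pclo (0.95, 0.84 and 1.02), Snap91 (0.72, 0.81 and 0.72), Nsf (−0.99, −0.97 and −0.72) and Syngr1 (−1.36, −1.31 and −1.24) were lost each time, and each was also lost under some of the other settings. Those of Syt4 (1.03 and 1.06) and Rab3b (−0.99 and −0.96) were lost without HuD array 1 or 3, and that of Rab3b also without the filter on dim genes, with quantile normalization (−0.80), with 75th percentile centring (−0.76) and with the title ending as a block. Leaving out IgG array 1 or 2, which leaves these differences as they are, brought Sv2a (−1.13), Stx1a, Vamp1 (−0.77) and Napb past it.

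Between the IgG pulldowns and the input limma called 0 of the 33 genes in either direction. Of all genes tested 0.0220% were called higher and 0% lower. With 2 IgG arrays and 1 input array, the lack of calls does not show that these samples were alike. An unadjusted p under 0.05 was found for 1 member and for 641 of the 9097 genes tested. That member was Syn1, at 815.0 and 669.9 with IgG and 1606.4 in the input (−1.09 ± 0.36, adjusted p = 0.639). The values of the other genes lay between −0.67, for Napa, and 0.60, for Bsn. The subgroup medians were −0.39, 0.00, 0.56 and −0.10 for vesicle, fusion, active zone and endocytosis genes. The vesicle median was 0.05 without IgG array 2, and the fusion median −0.17 without IgG array 1. Without IgG arrays 1 and 2 in turn the active zone median was 0.13 and 0.82, and the endocytosis median −0.33 and 0.05.

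Several members have close relatives in the list, which bind similar partners but gave unlike values. Napa was called lower and Napb higher. In the other named pairs only 1 gene or neither was called: Vamp2 rose while Vamp1 was at −0.19, Syn2 rose while Syn1 was at −0.55, and Syt4 rose while Syt11 was at 0.08. Amph fell while Bin1 was at −0.25, Syngr3 fell while Syngr1 was at −0.67, and Bsn fell while Pclo was at 0.38. The 3 Rab3 genes, Sv2a with Sv2b, and Cplx1 with Cplx2 had no call. A call in 1 gene and not in its relative does not show that they differ, and no difference within a pair was tested.

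Further genes of the same machinery were taken from a list written together with the members' roles. Of its 70 genes 65 had a probe set with that symbol alone and 57 were tested, of which 14 rose, 20 fell and 23 did not pass (median −0.39). Of all genes tested 21.5% rose and 34.0% fell, so these counts lie near the background. Among vesicle genes 2 of 15 rose and 6 fell. Synpr, a relative of synaptophysin, was at 1.93 ± 0.29 and the membrane carrier gene Scamp1 at 1.72 ± 0.23, while Slc32a1, the vesicular GABA transporter, was at −1.90 ± 0.24, the calcium sensor Syt7 at −1.34 ± 0.27 and the Rab3 effector Rph3a at −1.27 ± 0.25. Synpr read 1863.5 to 2512.3 with HuD and 392.5 and 672.7 with IgG.

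Among 11 further fusion genes 4 rose and 5 fell. Stxbp5, or tomosyn, which binds syntaxin, rose by 1.85 ± 0.25, from IgG signals of 341.0 and 281.5 to HuD signals of 1119.3 to 1243.3. Vamp4 (1.63 ± 0.23) and Vamp3 (1.14 ± 0.26), SNAREs of endosomal membranes, rose as well. The priming factors Unc13c (−1.50 ± 0.26) and Unc13b (−1.17 ± 0.26) and the calcium sensor Doc2b (−1.22 ± 0.29) fell.

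Of 12 further active zone genes 4 rose and 2 fell. The largest rises, named for their size, were those of Cask (1.13 ± 0.30), Lin7a (1.02 ± 0.22) and Apba1 (0.94 ± 0.27). Their proteins can form a shared scaffold complex at synapses, which was not tested as a set. The liprin genes Ppfia3 (−2.06 ± 0.32) and Ppfia4 (−1.53 ± 0.30) fell, and another liprin gene, Ppfia2, which is named here after its value was seen, rose (0.73 ± 0.26). For Ppfia3 the IgG signals of 1171.4 and 609.8 were above the input, at 385.0, and the HuD signals of 136.2 to 226.6 below it.

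Of 19 further endocytosis genes 4 rose and 7 fell. Ap2s1 (−1.74 ± 0.30) and Ap2m1 (−1.53 ± 0.25), for subunits of the clathrin adaptor AP-2, fell, and so did the scaffold gene Itsn1 (−1.70 ± 0.27). The other AP-2 genes of the list are named here after their values were seen. Of these Ap2b1 fell (−1.47 ± 0.43), while Ap2a2 (−0.66 ± 0.28) and Ap2a1 (0.43 ± 0.27) did not pass. Eps15 (1.23 ± 0.21), an endocytic adaptor, Dnajc6 (1.17 ± 0.22), which encodes the uncoating factor auxilin, and Sh3gl3 (1.07 ± 0.26), a relative of Sh3gl2, rose. Eps15 read 7367.5 to 8490.4 with HuD, 3354.6 and 3347.0 with IgG and 3858.7 in the input.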

How the data were processed

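The deposited values were intensities, 1 linear signal for each probe set on each array, and the authors had scaled the arrays to a common level, as the values show. The software and genome build behind them are not given in the sources used here. A platform annotation gave 1 symbol for 34945 of 45101 probe sets, several for 932 and none for 9160, and 64 were array controls, which no test used. All 33 members matched a RefSeq gene table (GRCm38.p6) by Entrez identifier, and 0 had another symbol there. No sequence was used here.

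For a gene, the brightest of its probe sets by mean log2(signal + 32) was taken, and the 9097 genes at or above the median were tested. limma 3.58.1 (R 4.3.3) was run on all 6 arrays with a mean for each group (eBayes with trend, 3 residual and 8.4 prior degrees of freedom), with Benjamini-Hochberg adjustment over all genes. A second fit took all 45037 probe sets that are no controls, unfiltered. The steps were tested on simulated data with independent noise and large changes in few genes. Those data had no shared array or scaling effects, so they do not show how reliable the calls made here are.

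Members and lists were chosen with earlier results of these data known. Every member is named, with array values for those called, and of the other pathway genes up to 3 called per role and direction. Ppfia2, Ap2b1, Ap2a2 and Ap2a1 were added after their values were seen. Alternatives covered the pseudocount (8 or 128), filter, scaling, averaged probe sets, the trend, blocks and leaving out each array. The number of arrays limits the precision.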

Additional observations from a re-analysis of the deposited data

How the results depend on the processing

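Of the 16 genes called between HuD and IgG pulldowns, 6 kept the call under all 17 alternatives: Syt4, Syngr3, Stx1a, Vamp2, Dnm1 and Amph. Syn2 turned to −0.24 when its probe sets were averaged. The members called lower against IgG numbered 5 with 75th percentile centring and 14 with the replicate block from the title numbers. Over all 9097 genes, 1702 and 3274 were called lower in these settings, beside 3093 as reported. Deviations of HuD array 1 and IgG array 1, which share a title number, correlated at −0.030, and those of HuD array 3 and IgG array 2 at 0.395. HuD array 2 and IgG array 1, which were not blocked together, were at 0.337. With 2 IgG arrays the deviations of the IgG arrays mirror each other, so these correlations cannot decide whether arrays were paired. The labels do not explain the numbers, which served as pairs only in that alternative. Against the input, 2 members were called higher without the filter, with quantile normalization, with median centring or with averaged probe sets, 3 without the trend, and 5 lower without the filter. Of all 18193 genes without the filter, 1037 were called higher and 1453 lower. In the other settings, in the same order, 1508, 1244, 958 and 1409 of 9097 genes were called higher, beside 1428 as reported. With only brighter probe sets tested, 14 of the members' probe sets were called higher and 17 lower against IgG. The share of all brighter probe sets called in that fit is not given here, so these counts have no background beside them.

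With 75th percentile centring the medians against IgG were 0.33 for vesicle, 0.13 for fusion and 0.69 for active zone genes, and against the input 0.28, 0.19 and 0.95, and 0.11 for endocytosis genes. With averaged probe sets the vesicle, fusion and active zone medians against IgG were −0.23, 0.11 and 0.01, and those of vesicle and fusion genes against the input −0.35 and −0.34. With quantile normalization the active zone median against IgG was 0.14, and the vesicle, fusion and endocytosis medians against the input were −0.30, −0.73 and −0.58. The vesicle median against IgG was 0.16 with median centring, and the endocytosis median against the input −0.56 with the stricter filter. The fusion median of IgG against input was −0.24 with quantile normalization, −0.22 with median centring and −0.16 with averaged probe sets. The cause of these moves was not tested.

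With each HuD and IgG array left out in turn, the members called against IgG ranged from 4 to 9 higher and from 6 to 10 lower, and against the input from 1 to 7 higher and from 6 to 12 lower. Their probe sets called against IgG ranged from 0 to 8 higher and from 0 to 13 lower. How many of all probe sets were called in those fits is not given here. The medians against IgG ranged from −0.18 to 0.07 for vesicle, 0.11 to 0.64 for active zone and −0.99 to −0.09 for endocytosis genes. For IgG against input they ranged from −0.52 to 0.05 for vesicle, −0.17 to 0.00 for fusion, 0.13 to 0.82 for active zone and −0.33 to 0.05 for endocytosis genes.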
